A study of Rattus norvegicus with 9 samples.

Results

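Heat shock proteins were followed in pancreatic islets of diabetic rats through their probe sets, the groups of short oligonucleotides that report one transcript on an Affymetrix array. The members were 10 genes chosen by name, of 14217 named on the array: Hspa1a, Hspa1b, Hspa8, Hspb1, Hsph1, Hsp90aa1, Hsp90ab1, Hspd1, Hspe1 and Dnajb1. A probe set was taken when the platform annotation gave it the symbol of a member. Of the 10 genes, 7 had probe sets of their own, 10 in all, since Dnajb1, Hsph1 and Hsp90ab1 had 2 each. Another 4 probe sets carried a member's symbol together with another gene's: 1 read Hspa1b and Hspa1a, 1 read Haus8l2 and Hspa8, and 2 read Hsp90aa1-ps17 and Hsp90aa1. Their signal cannot be assigned to 1 gene, so they were described but left out of the counts of genes. All 14 probe sets passed the filter on low values, out of 20695 that were tested and 31042 on the array without controls.

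The animals were male Zucker Diabetic Fatty rats (fa/fa), which lack a working leptin receptor, grow obese and develop diabetes, and all of them ate the Purina 5008 diet. The treated group received rosiglitazone, a thiazolidinedione drug that activates the nuclear receptor PPARγ, between weeks 5 and 9 of age, and its islets were taken at 9 weeks. Rats of the withdrawal group had the same course, then 2 weeks without the drug, and were killed at 11 weeks. Untreated rats never had the drug and were 13 weeks old. The drug was given as powdered Avandia in the food at 3 mg per kg of body weight, and 24 animals were randomised in the study. Each group had 3 arrays, which the labels call biological replicates without saying how many animals each one holds, so p-values measure the spread between these arrays. Age differed with the group, so drug and age cannot be told apart in any comparison.

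Heat shock proteins are chaperones, which hold or refold unfolded proteins. HSP70 proteins such as Hspa1a and the constitutive Hspa8 bind short exposed stretches of a client, J-domain proteins such as Dnajb1 deliver the client and start ATP hydrolysis, and Hsph1 releases ADP so that the cycle can begin again. HSP90 proteins act later on kinases and steroid receptors, small heat shock proteins such as Hspb1 hold unfolded protein without ATP, and Hspd1 with its lid Hspe1 folds proteins inside mitochondria. Many of these genes are switched on by HSF1, a transcription factor that binds inverted repeats of the letters GAA and TTC. Islet beta cells make large amounts of secreted protein and depend on chaperones to do so.

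The promoters are shown because the members differ in how many such repeats lie close to the start. Of the 10 members, 8 had an entry in the RefSeq promoter table (build GRCr8), and Hspa1b and Hsp90aa1 had none. The 250 bases before each start were searched for the pairs GAANNTTC and TTCNNGAA, each of which reads the same on both strands. They were also searched for a run of 3 units, in which both pairs overlap by a shared GAA or TTC, on either strand. Of all 33469 promoters in the table, 7.23% held GAANNTTC, 7.48% held TTCNNGAA and 0.663% held the run of 3. Of the 8 members, 6 held the first, 4 the second and 4 the run of 3. The sequences below run 5′ to 3′ on the gene's own strand and end at the base before the start, with the matches in capitals. Dnajb1 lies on the minus strand at chr19:41431142-41431391, Hsph1 on the plus strand at chr12:10427118-10427367, Hspb1 on the minus strand at chr12:26432302-26432551, Hspe1 on the plus strand at chr9:64084077-64084326 and Hspa8 on the plus strand at chr8:50080264-50080513.
Dnajb1: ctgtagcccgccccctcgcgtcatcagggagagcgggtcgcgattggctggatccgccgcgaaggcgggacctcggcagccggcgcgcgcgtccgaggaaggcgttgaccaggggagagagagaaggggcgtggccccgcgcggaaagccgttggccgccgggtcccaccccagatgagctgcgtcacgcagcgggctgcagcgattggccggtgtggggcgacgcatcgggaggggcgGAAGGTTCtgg
Hsph1: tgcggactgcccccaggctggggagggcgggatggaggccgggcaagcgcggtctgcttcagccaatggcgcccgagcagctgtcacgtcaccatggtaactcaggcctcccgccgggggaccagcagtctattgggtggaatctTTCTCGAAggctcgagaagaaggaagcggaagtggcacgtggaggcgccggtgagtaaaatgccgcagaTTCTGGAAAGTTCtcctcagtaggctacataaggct
Hspb1: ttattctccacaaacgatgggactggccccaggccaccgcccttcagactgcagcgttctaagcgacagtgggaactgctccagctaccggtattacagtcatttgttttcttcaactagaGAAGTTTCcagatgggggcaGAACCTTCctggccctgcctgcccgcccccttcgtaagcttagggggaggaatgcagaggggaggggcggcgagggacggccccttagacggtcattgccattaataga
Hspe1: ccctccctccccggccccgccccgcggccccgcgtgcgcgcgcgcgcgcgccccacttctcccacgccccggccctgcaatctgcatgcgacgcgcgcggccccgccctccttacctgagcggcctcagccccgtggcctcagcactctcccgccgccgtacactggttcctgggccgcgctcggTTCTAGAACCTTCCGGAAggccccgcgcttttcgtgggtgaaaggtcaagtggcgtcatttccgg
Hspa8: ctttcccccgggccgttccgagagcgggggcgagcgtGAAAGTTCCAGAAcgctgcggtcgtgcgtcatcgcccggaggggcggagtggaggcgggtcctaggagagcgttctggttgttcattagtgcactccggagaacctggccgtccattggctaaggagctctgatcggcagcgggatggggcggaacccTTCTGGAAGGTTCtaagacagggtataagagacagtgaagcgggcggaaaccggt
Hspa8 held 2 separate runs of 3 units. Hspe1 held 2 runs that overlap, 65 to 48 bases before its start, and Hspd1, which is read from the opposite strand (chr9:64084038-64084287), shares that stretch, 242 to 225 bases before its own start. Hsph1 held 1 run of 3 and 1 pair farther out, Hspb1 held 2 pairs, and Dnajb1 held 1 pair, 11 to 4 bases before its start. Hspa1a and Hsp90ab1 held no exact match to these patterns in this window. The window rests on the start given in the promoter table. Sites outside it, or with other letters, were not searched for, so these genes may still hold such repeats. A match is a description of the letters and shows no binding.

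The arrays themselves differed before any gene was considered. The deposited values, on a scale taken to be log2, spread more widely on the treated arrays, with a standard deviation over probe sets of 1.836 to 1.997 against 1.661 to 1.77 on the untreated and 1.649 to 1.718 on the withdrawal arrays, and treated replicate 1 was the widest. Bright probe sets therefore lay higher on the treated arrays as a class: the median difference between treated and untreated arrays was 0.218 over all 11619 genes and 0.486 over the brightest 20% of them. As deposited 5817 probe sets differed between treated and untreated islets, 74.2% of them upwards, and after quantile normalization 3558 did, 45.1% upwards. Most heat shock probe sets are bright, so each result is given as deposited and again after quantile normalization, which forces 1 distribution on all arrays. The labelled islets carried the beta cell markers, with Ins1 and Ins2 among the brightest probe sets. They also carried acinar markers, from the enzyme-secreting cells around the islets, which averaged 13.79 to 13.97. These lie at the top of the arrays' scale, where a change in signal may not show. In such bulk samples, fewer cells of a type and less RNA per cell cannot be told apart.

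In treated islets the heat shock genes stood above untreated islets, with the largest differences in Hspa1a and Dnajb1. As deposited, 6 of the 7 genes with their own probe set rose and none fell (limma, adjusted p under 0.05 over all probe sets tested), against a background of 24.0% of all genes called higher, 49.4% of the brightest 20%, and 5.74% of all genes called lower. The values of all 7 genes did not overlap between treated and untreated arrays, which held for 35.7% of all genes. Over the 3 groups, the limma F test called 6 of the 7 genes, all but Hspb1, against 39.8% of all genes, and after quantile normalization Hspa1a and Hspe1, against 23.8%. The shares for no overlap and for the F test were taken over all genes only, not over the brightest 20%. The median difference of the 7 genes between treated and untreated arrays was 0.896, beside 0.218 for all genes and 0.486 for the brightest 20%. After quantile normalization 2 of the 7 genes rose, Hspa1a and Hspe1, against a background of 7.63% of all genes and 5.46% of the brightest 20% (8.88% were lower). Then 5 of the 7 did not overlap, against 18.1% of all genes. The median difference was 0.41, beside 0.0229 for all genes and 0.0061 for the brightest 20%.

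**Figure D1:**
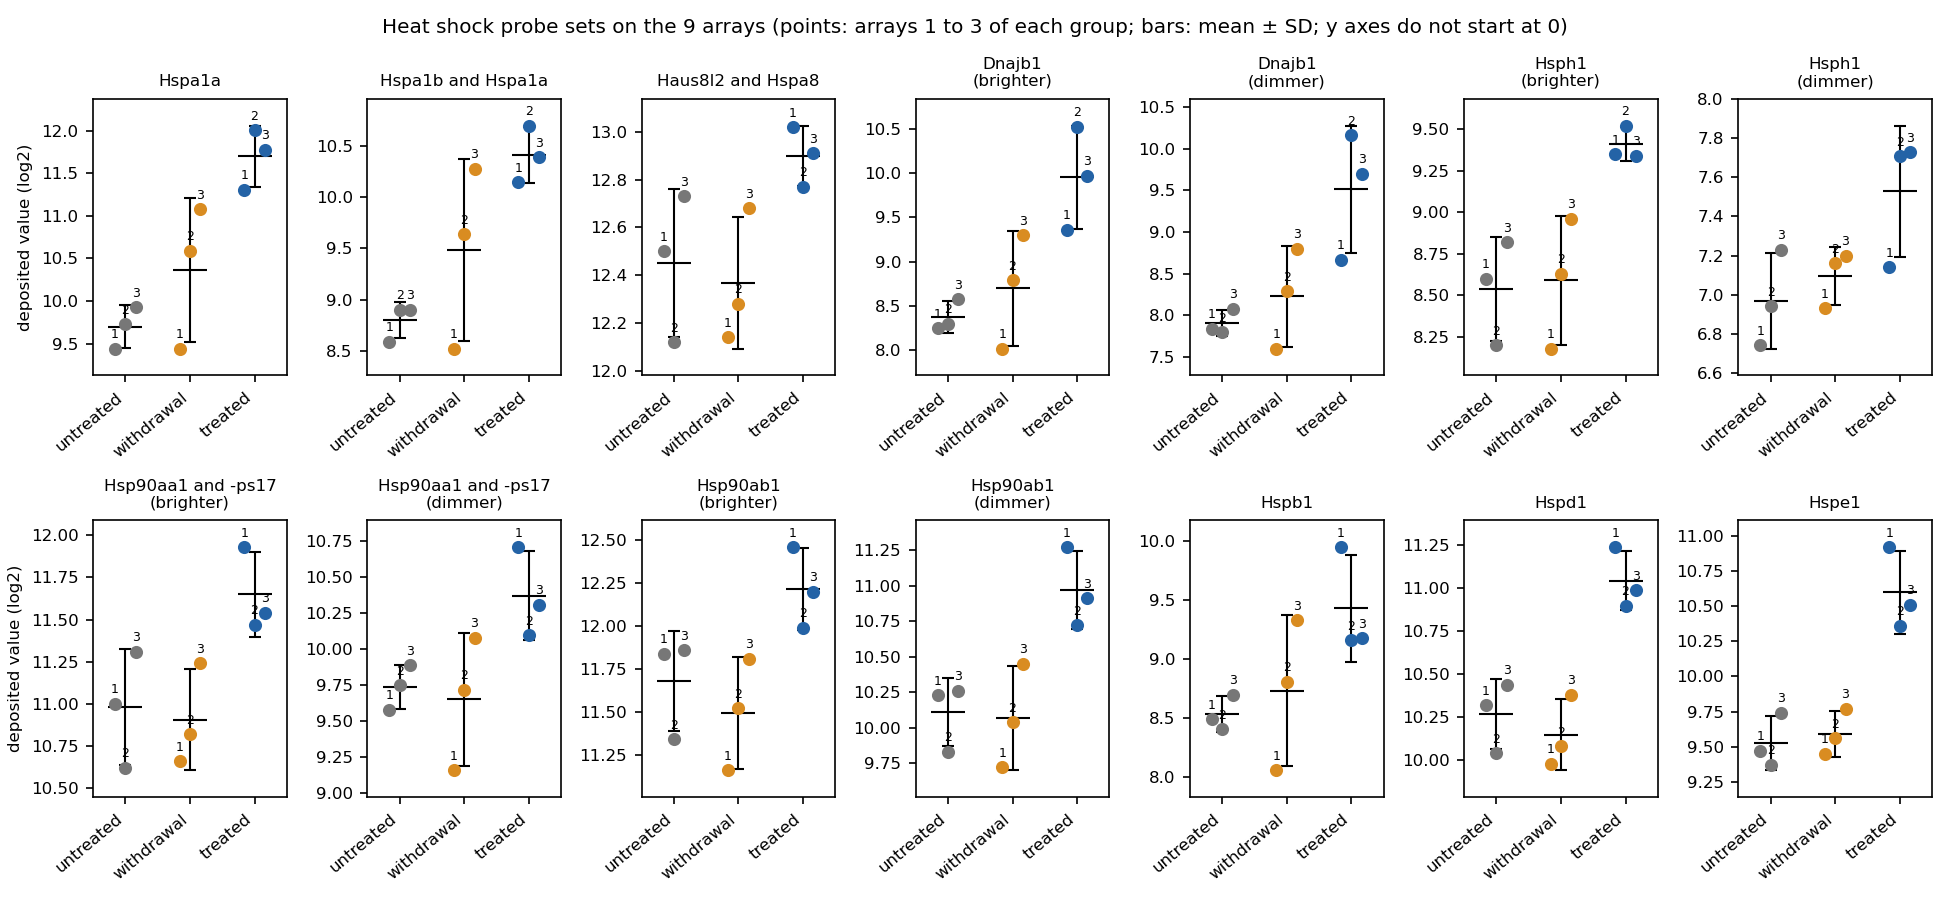
Deposited log2 values of the 14 heat shock probe sets, with the groups on the x axis, 1 numbered point per array and bars for the group mean and SD. All treated points of Hspa1a, from 11.31 to 12.01, lie above its untreated points, from 9.44 to 9.93, and its withdrawal points run from 9.44 to 11.08.

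Hspa1a, the stress-inducible HSP70, showed the largest difference of the members. Its log2 signal was 11.31, 12.01 and 11.78 on the treated arrays, 9.44, 10.59 and 11.08 on the withdrawal arrays and 9.44, 9.73 and 9.93 on the untreated arrays. Every treated array lay above every other array, while the withdrawal arrays ran from the level of the lowest untreated array to just below the treated ones. The treated mean of 11.70 ± 0.36 (SD, n = 3) exceeded the untreated mean of 9.70 ± 0.25 by 2.00 ± 0.335 (SE), or 4-fold, with a limma adjusted p of 0.00292. After quantile normalization the difference was 1.42 (adjusted p = 0.0254), and treated and untreated arrays still did not overlap. Treated replicate 1, at 10.56, then lay below withdrawal replicates 2 and 3, at 11.08 and 11.22. As deposited, the call between treated and untreated arrays held in all 9 fits that left out 1 array, with differences from 1.84 to 2.20.

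The probe set annotated with both Hspa1b and Hspa1a, a pair of near-identical genes, followed the same course. It read 10.15, 10.70 and 10.39 on the treated arrays, 8.52, 9.64 and 10.28 on the withdrawal arrays and 8.59, 8.90 and 8.90 on the untreated arrays. Treated and untreated arrays did not overlap, and withdrawal replicate 3 lay among the treated ones. The deposited values gave a difference of 1.62 ± 0.334 (limma adjusted p = 0.00685). Quantile normalization brought it to 1.07, which missed the threshold (adjusted p = 0.0656). The probe set shared by Haus8l2 and Hspa8, the HSP70 that cells make without stress, read 13.02, 12.77 and 12.91 on treated, 12.14, 12.28 and 12.68 on withdrawal and 12.50, 12.12 and 12.73 on untreated arrays. All treated values were the highest, but untreated replicate 3 came close to them. The difference of 0.447 ± 0.179 did not pass (limma adjusted p = 0.0799) and was 0.028 after quantile normalization.

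Of the HSP70 partners, Dnajb1, the J-domain protein that works with inducible HSP70, showed the second largest difference. Its brighter probe set read 9.36, 10.52 and 9.97 on the treated arrays, 8.02, 8.79 and 9.30 on the withdrawal arrays and 8.25, 8.30 and 8.58 on the untreated arrays. The untreated arrays were close together and all below the treated ones, among which replicate 1 was the lowest. The difference was 1.57 ± 0.315, or 2.98-fold (limma adjusted p = 0.00602), and the dimmer probe set gave 1.61. After quantile normalization it was 1.08 and missed the threshold (adjusted p = 0.0578). With quantile normalization and treated replicate 1 left out, a setting chosen after seeing the data, it was 1.46 and passed (adjusted p = 0.00423). That of Hspa1a was 1.78 (adjusted p = 0.00372). Replicate 1 was the lowest quantile-normalised treated array for both genes, at 8.76 and 10.56, so leaving it out raises their treated means and gives no separate support. In that setting Hspe1 also passed, while Hsph1 (0.541, adjusted p = 0.0514), Hspb1 (0.286), Hspd1 (0.237) and Hsp90ab1 (0.001) did not.

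Hsph1, the exchange factor of HSP70, read 9.35, 9.52 and 9.34 on the treated arrays, 8.18, 8.63 and 8.96 on the withdrawal arrays and 8.60, 8.20 and 8.82 on the untreated arrays with its brighter probe set. The treated arrays lay close together above all others. The difference was 0.868 ± 0.200 (limma adjusted p = 0.0105), and 0.41 after quantile normalization (adjusted p = 0.156), where the groups overlapped. The call was lost without untreated replicate 2, the lowest of the untreated arrays (0.70, adjusted p = 0.0558). The dimmer probe set gave a difference of 0.56 (adjusted p = 0.0391), with groups that overlapped.

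Hsp90ab1 differed least of the 7 genes. The brighter probe set of Hsp90ab1, the constitutive cytosolic HSP90, read 12.46, 11.99 and 12.20 on the treated arrays, 11.16, 11.52 and 11.81 on the withdrawal arrays and 11.84, 11.34 and 11.86 on the untreated arrays. The treated arrays lay above the untreated ones by a margin that was small beside the spread among the untreated arrays. The difference of 0.536 ± 0.197 did not pass (limma adjusted p = 0.0598), lay near the median of genes of like brightness, 0.533, and came to 0.041 after quantile normalization. Its dimmer probe set passed with 0.859 (adjusted p = 0.0115), so the probe sets of this gene disagreed on the call. The call of the brighter one was gained without treated replicate 2 (0.65, adjusted p = 0.0386). The 2 probe sets shared by Hsp90aa1-ps17 and Hsp90aa1, the stress-responsive HSP90, had deposited values that differed between treated and untreated arrays by 0.67 and 0.636 (adjusted p = 0.0309 and 0.0488). After quantile normalization the differences were 0.136 and 0.053, with no call.

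Hspb1, the small heat shock protein that also binds actin filaments, read 9.95, 9.16 and 9.18 on the treated arrays, 8.06, 8.81 and 9.33 on the withdrawal arrays and 8.49, 8.41 and 8.70 on the untreated arrays. Treated replicate 1 was well above the other treated arrays, and withdrawal replicate 3 exceeded those. The difference between treated and untreated arrays was 0.896 ± 0.286 (limma adjusted p = 0.0368), and 0.404 after quantile normalization (adjusted p = 0.267). The call held in 4 of 9 fits that left out 1 array. It was lost without treated replicate 1 (0.637, adjusted p = 0.0527), untreated replicate 1 (adjusted p = 0.0864), untreated replicate 2 (adjusted p = 0.131), untreated replicate 3 (adjusted p = 0.0587) and withdrawal replicate 2 (adjusted p = 0.0542).

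The mitochondrial chaperonin pair had the smallest standard errors of the 7 genes. Hspe1, the lid, read 10.92, 10.36 and 10.51 on the treated arrays, 9.45, 9.56 and 9.77 on the withdrawal arrays and 9.47, 9.37 and 9.74 on the untreated arrays. Treated arrays stood apart from all the others, which overlapped with each other. The difference was 1.07 ± 0.167, or 2.1-fold (limma adjusted p = 0.00228), and 0.486 after quantile normalization (adjusted p = 0.0118). Hspd1, the barrel of the same complex, read 11.24, 10.90 and 10.99 on treated, 9.98, 10.08 and 10.38 on withdrawal and 10.32, 10.04 and 10.44 on untreated arrays. Here too the treated arrays stood apart from all others. Its difference of 0.775 ± 0.154 passed as deposited (limma adjusted p = 0.00594), but was 0.182 after quantile normalization (adjusted p = 0.209).

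**Figure D2:**
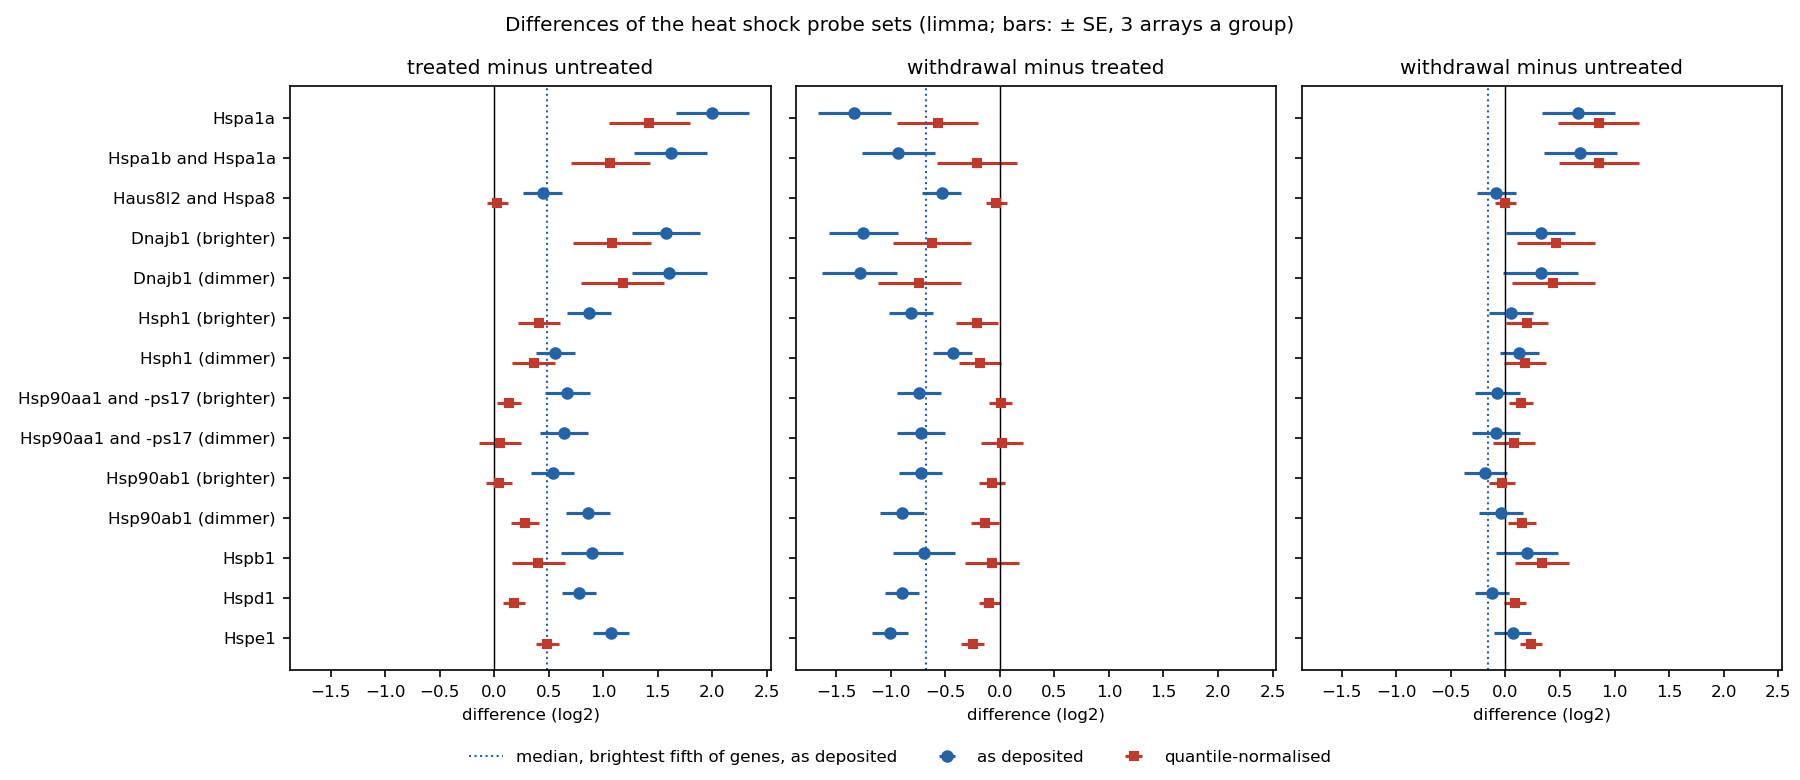
Log2 differences of the heat shock probe sets between groups, as deposited and after quantile normalization, with the difference on the x axis, 1 row per probe set, standard errors as bars and the median of the brightest 20% of genes as a dotted line. Between treated and untreated arrays Hspa1a lies farthest to the right at 2.00 as deposited and 1.42 after quantile normalization, while Hsp90ab1 goes from 0.536 to 0.041.

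Against the treated arrays, the withdrawal arrays were lower in most of the 7 genes as deposited, as they were in most of the brightest 20% of genes. The comparison shares its treated arrays with the one above. As deposited, 6 of 7 genes fell and none rose, against a background of 37.9% of all genes and 73.6% of the brightest 20% called lower, and 8.46% of all genes called higher. Hspb1, at -0.696, missed the threshold (limma adjusted p = 0.0666). The values of 6 of the 7 genes did not overlap, against 44.9% of all genes. The log2 difference was -1.33 ± 0.335 for Hspa1a (limma adjusted p = 0.0083), -1.25 ± 0.315 for Dnajb1 (adjusted p = 0.0084) and -1.01 ± 0.167 for Hspe1 (adjusted p = 0.00144). Hsph1, Hspd1 and Hsp90ab1 stood at -0.817, -0.895 and -0.723. The medians of genes of like brightness were -0.583 for Hsph1 and Dnajb1's dimmer probe set, and -0.745 for Hspd1, Hsp90ab1, Hspa1a and Hspe1. Hsp90ab1 thus fell no more than such genes. The median of the 7 genes was -0.895, beside -0.2725 for all genes and -0.674 for the brightest 20%. After quantile normalization it was -0.208, beside -0.0433 and -0.0362. The differences of single genes above are as deposited. These differences rest on means over withdrawal arrays that differed widely from each other. After quantile normalization none of the 7 genes passed, against 14.2% of all genes and 8.35% of the brightest 20% called lower. Called higher were 13.3% of all genes. The values of 1 gene did not overlap, against 25.1% of all genes. At an unadjusted limma p under 0.05, 1 gene was lower, and the share of all genes at that threshold was not counted. Hspe1 then had the smallest adjusted p, 0.0894, at -0.25, and Hspa1a stood at -0.567 (adjusted p = 0.263). Hsp90ab1 (adjusted p = 0.012 as deposited) lost its call without withdrawal replicate 1 (-0.555, adjusted p = 0.0613), and Hspb1 gained one without withdrawal replicate 3 (-0.996, adjusted p = 0.0156) and with array weights (-0.557, adjusted p = 0.044). Without treated replicate 1 Hspb1 stood at -0.436 (adjusted p = 0.145), and without withdrawal replicate 1 at -0.361 (adjusted p = 0.29). For Hspa1a the difference was -0.867 without withdrawal replicate 1 (adjusted p = 0.0227), and its call held in all 9 such fits.

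Between withdrawal and untreated arrays no heat shock gene passed in limma in either direction, on either scale. At an unadjusted p under 0.05 there were 0 as deposited and 2 after quantile normalization, Hspa1a and Hspe1. The share of all genes at that unadjusted threshold was not counted, so these 2 have no background. Few genes of any kind passed the adjusted threshold, 0.00861% higher and 0.189% lower as deposited, and 0.0430% and 0.508% after quantile normalization. Hspa1a had the largest difference, 0.667 ± 0.335 (limma adjusted p = 0.723) and 0.855 after quantile normalization (adjusted p = 0.444). It was 1.13 without withdrawal replicate 1 and 0.31 without withdrawal replicate 3. Dnajb1 followed at 0.324 (adjusted p = 0.872), with 0.668 and 0.024 without the same arrays, and the other 5 genes lay between -0.187 and 0.2. With 3 arrays a group and withdrawal arrays this far apart, these values do not show that withdrawal and untreated islets were alike.

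The withdrawal arrays fell in 1 order for the whole set. Withdrawal replicate 1 was the lowest and replicate 3 the highest of the group in 14 of 14 heat shock probe sets as deposited and in 11 of 14 after quantile normalization. The same order held for 25% of all genes and 29.3% of the brightest 20% as deposited, and for 20.5% and 23.8% after quantile normalization. Replicate 3 alone was the highest of the group in 1905 of the 2324 brightest genes as deposited, and in 967 after quantile normalization. For Hspa1a the withdrawal arrays ran from 9.44 to 11.08, a wider range than among the treated or the untreated arrays. Replicates 2 and 3 both lay above every untreated array while replicate 1 did not in 5 of the 14 probe sets as deposited (4.11% of all genes) and in 11 of 14 after quantile normalization (4.69% of all genes). The replicate numbers are names, and the probe sets come from the same arrays, so the 14 are not independent. Among the treated arrays, replicate 2 was the highest in 5 of the 14 probe sets on both scales: Hspa1a, Hspa1b and Hspa1a, both of Dnajb1 and the brighter one of Hsph1. That was the case for 25.1% of all genes and 13.2% of the brightest 20% as deposited, and for 34.3% and 36.7% after quantile normalization. Replicate 1 was the highest in 8 of 14 as deposited, against 61.5% of all genes and 81% of the brightest 20%, and in 3 of 14 after quantile normalization, against 42.1% and 42.9%, when replicate 3 was the highest in 6.

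**Figure D3:**
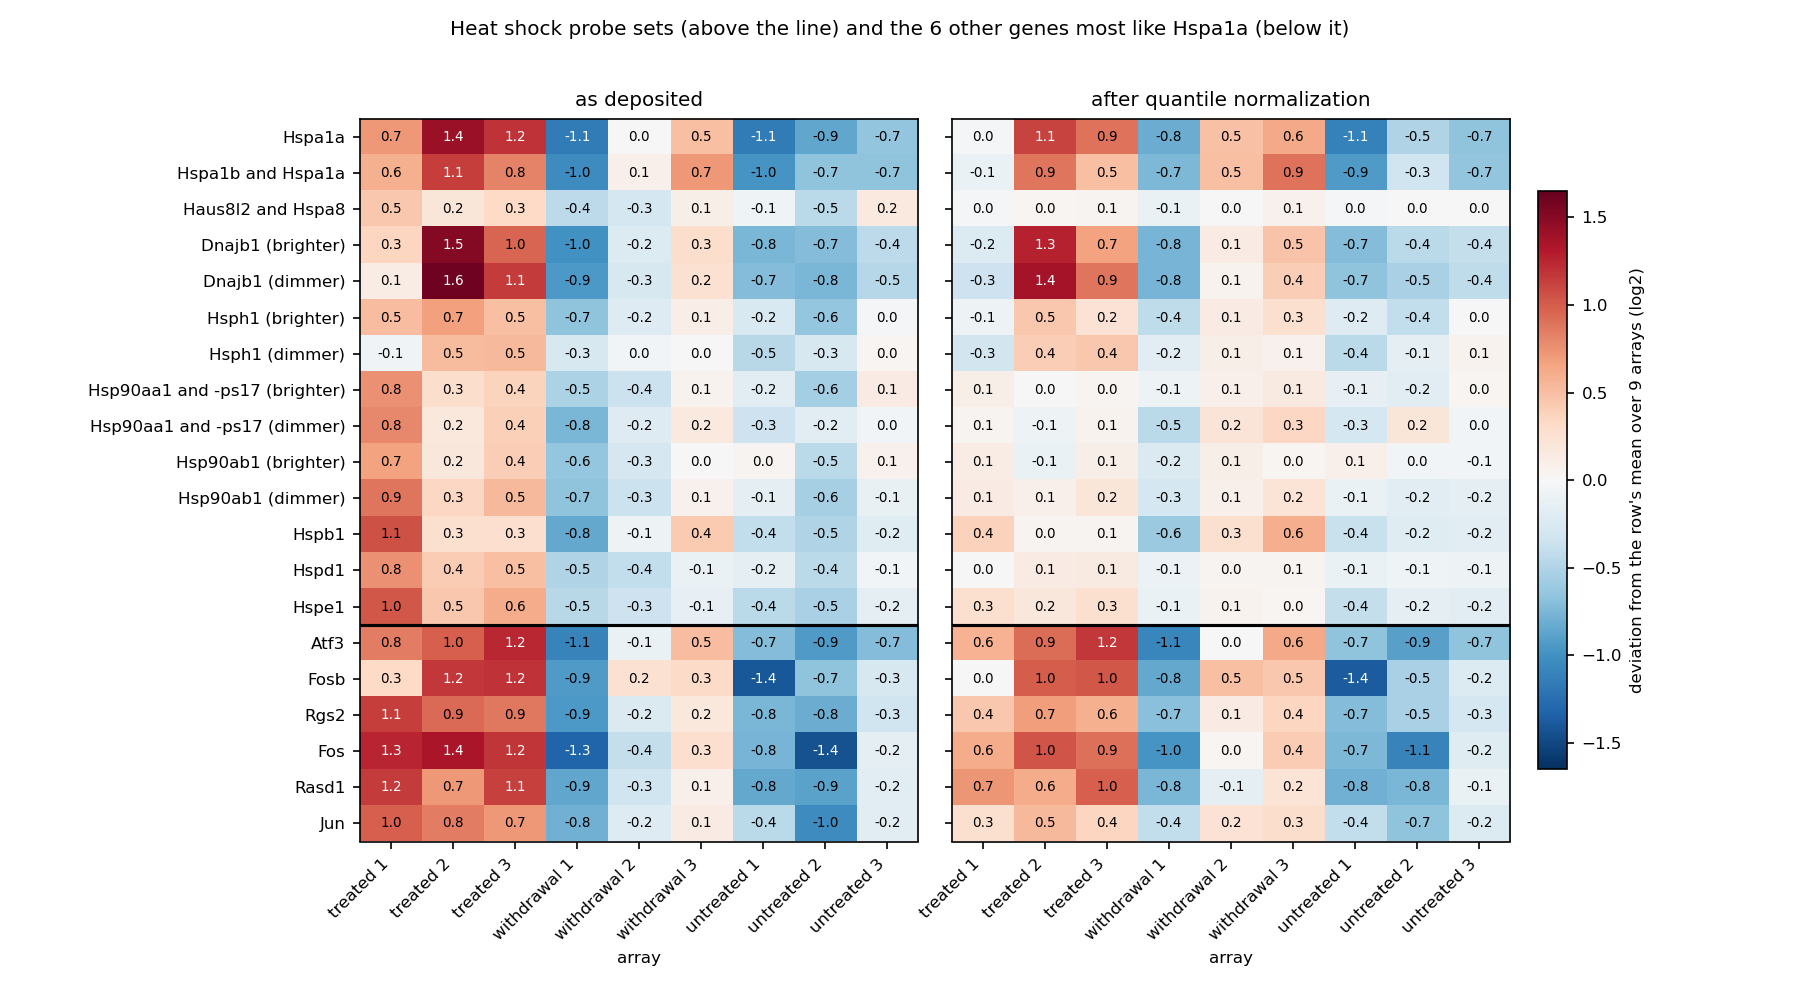
Deviation of each heat shock probe set (above the line) and of the 6 other genes most like Hspa1a (below it) from its own mean over the 9 arrays, in log2 units, as deposited on the left and after quantile normalization on the right. Treated columns are mostly red and withdrawal replicate 1 is blue in nearly every row, while withdrawal replicate 3 is red in most rows.

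The genes whose pattern over the 9 arrays was nearest to that of Hspa1a were mostly immediate early genes, which cells switch on within minutes of a stimulus. Likeness was the root mean square difference between the arrays' deviations from each gene's own mean, over 11618 other genes. Atf3, a stress-induced transcription factor, came first at 0.216, Dnajb1 was the second at 0.243, and Fosb, an AP-1 subunit, followed at 0.26. Rgs2, a regulator of G protein signalling, came next at 0.331, then Fos at 0.372, Rasd1, a small GTPase induced by glucocorticoids, at 0.39, and Jun at 0.434. After quantile normalization Fosb ranked 1, Dnajb1 2, Rgs2 3, Atf3 4, Fos 5, Jun 11 and Rasd1 14. Of the other members, Hsph1 ranked 40, Hspe1 78, Hspb1 91, Hspd1 242 and Hsp90ab1 984 as deposited, and after quantile normalization 48, 212, 123, 1103 and 3792 in the same order. The measure is not scaled, so a gene with a small difference between groups must lie at a distance from Hspa1a whatever its order over the arrays. Of the members ranked, Dnajb1 lay closest to Hspa1a, and Hsp90ab1, with the smallest difference between treated and untreated arrays, lay farthest. These genes were picked for their likeness to Hspa1a on the same arrays, which fixes the direction of their difference, so it is given as a description with no test: treated minus untreated, Atf3 stood at 1.82 as deposited and 1.63 after quantile normalization, and Fos at 2.05 and 1.53.

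Related chaperone genes were read through 10 lists, 9 of which had tested genes; the ubiquitin list had none with its own probe set. Their counts stand beside the 24.0% of all genes and 49.4% of the brightest 20% called higher in treated than untreated islets as deposited, and the 7.63% and 5.46% after quantile normalization. Of the heat shock factors, Hsf1 and its relative Hsf2 rose between untreated and treated arrays by 0.449 and 0.593 as deposited (limma adjusted p = 0.0355 and 0.0121), as did 3 of 4 in the list, but none passed after quantile normalization. In the rest of the HSP70 family 3 of 5 genes rose, and the same 3 passed after quantile normalization: Hspa13, a microsomal member, by 1 and 0.516 (adjusted p = 0.000755 and 0.00972), Hspa4 by 0.722 and 0.505, and Hspa14 by 0.825 and 0.606. Among HSP40 and nucleotide exchange genes 9 of 19 rose and 2 did so after quantile normalization. They were Dnajb6, a J-domain protein that holds back aggregation, by 1.16 and 0.834, and Dnajb4, by 0.871 and 0.468. The median of that list, which also holds dim genes, was 0.504, beside 0.218 for all genes and 0.486 for the brightest 20%. After quantile normalization it was 0.094, beside 0.0229 and 0.0061.

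Of the HSP90 co-chaperones 9 of 13 rose as deposited and 2 after quantile normalization, Fkbp5, which tunes the glucocorticoid receptor, by 0.895 and 0.609, and Ppid, a cyclophilin, by 0.796 and 0.314. The cytosolic CCT and prefoldin genes, which fold actin and tubulin, rose in 11 of 13 as deposited and in none after quantile normalization, where 1 fell. Mitochondrial chaperones and proteases rose in 5 of 11 as deposited. After quantile normalization 2 rose and 1 fell. Dnaja3 rose on both scales, by 0.725 as deposited (limma adjusted p = 0.00382) and 0.564 after quantile normalization (adjusted p = 0.0136). Hspa9, the mitochondrial HSP70, no longer passed at 0.241 (adjusted p = 0.121) after 0.745 (adjusted p = 0.00387) as deposited. Other small heat shock proteins rose in 1 of 6, Hspb6, by 0.618 (adjusted p = 0.00624), and in none after quantile normalization.

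Chaperones of the endoplasmic reticulum, where insulin is folded, rose in 11 of 17 as deposited with a median of 0.638. After quantile normalization 3 rose and 1 fell. The 3 were Sdf2l1, a partner of the HSP70 of that compartment, by 1.82 as deposited and 1.25 after quantile normalization, Creld2, by 1.27 and 0.701, and Dnajb9, by 1.04 and 0.44. Immediate early genes rose in 12 of 19 as deposited and in 9 after quantile normalization, with medians of 1.08 and 0.561. Against treated arrays, withdrawal arrays were called lower in 17 of 17 chaperones of the endoplasmic reticulum and in 12 of 19 immediate early genes as deposited, beside 37.9% of all genes and 73.6% of the brightest 20%. After quantile normalization 6 and 3 were called lower, beside 14.2% and 8.35%.

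**Figure D4:**
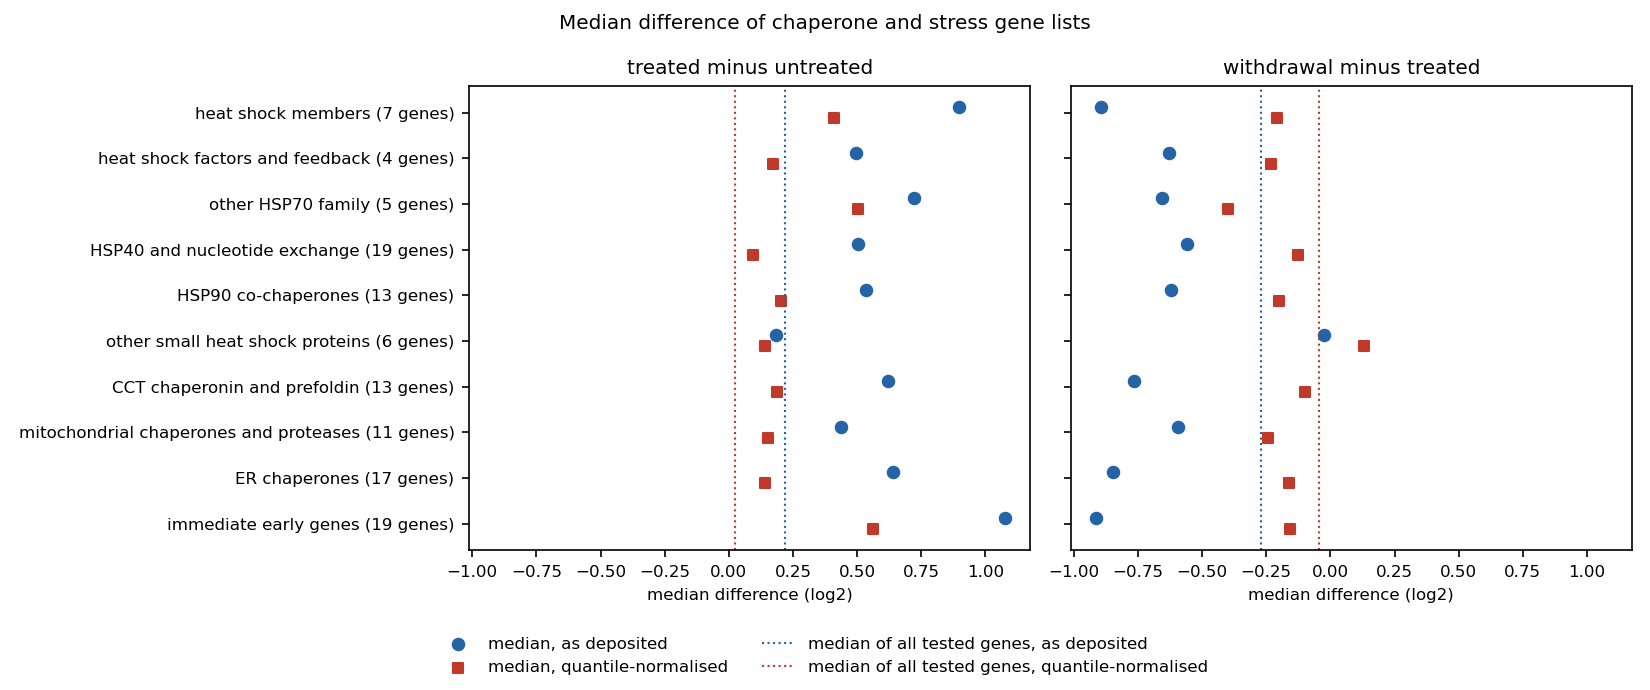
Median log2 difference of the heat shock members and of each list of related genes, on the x axis, between treated and untreated arrays on the left and withdrawal and treated arrays on the right, as deposited (circles) and after quantile normalization (squares), with the medians of all tested genes as dotted lines. On the left the heat shock members lie at 0.896 and 0.41, and the immediate early genes at 1.08 and 0.561.

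Markers of islet cells and of other cell types differed among the arrays too. The mean of 7 beta cell markers was 11.88 to 12.04 on the treated, 11.35 to 11.64 on the untreated and 11.15 to 11.36 on the withdrawal arrays. Between untreated and treated arrays 3 of the 7 rose as deposited and none after quantile normalization, and between treated and withdrawal arrays 4 fell, and 3 after quantile normalization. The mean of 5 markers of the other islet hormone cells was 11.37 to 11.62 on the treated, 10.43 to 10.68 on the untreated and 10.24 to 10.55 on the withdrawal arrays. Of these, 3 rose in treated islets on both scales, with list medians of 1.14 and 0.765, and all 5 fell in withdrawal islets as deposited and 4 after quantile normalization, with medians of -1.14 and -0.602. These lists thus differed in the same direction as the heat shock genes in both comparisons. As deposited, so did the brightest 20% of genes, with 49.4% called higher in treated than untreated islets and 73.6% lower in withdrawal than treated islets. After quantile normalization these shares were 5.46% and 8.35%. The beta cell medians were 0.347 and -1.008 as deposited, beside 0.486 and -0.674 for the brightest 20%. After quantile normalization they were 0.087 and -0.3, beside 0.0061 and -0.0362. The part of this shift in the marker counts was not tested.

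On the treated arrays the stellate and matrix markers averaged 10.49, 8.98 and 9.74 over 8 genes and the macrophage markers 8.10, 6.74 and 7.39 over 7 genes. Replicate 1 was the highest and replicate 2 the lowest. As deposited, 8 of the 14 heat shock probe sets shared this order. They were those of Hspb1, Hspd1, Hspe1 and Hsp90ab1 and the ones annotated with Hspa8 and Hsp90aa1. Hspa1a and Dnajb1 ran the other way. Replicate 1 was also the highest treated array for 61.5% of all genes and 81% of the brightest 20% as deposited. After quantile normalization it was the highest in 3 of the 14, against 42.1% and 42.9%. The share of all genes with the full order was not counted. On the withdrawal arrays the macrophage markers averaged 7.84 to 7.93 and the stellate markers 9.92 to 10.14. After quantile normalization they averaged 7.99 to 8.08 and 10.26 to 10.29, above the treated arrays at 6.67 to 7.78 and 8.78 to 9.86. As deposited, 2 of 7 macrophage and 0 of 8 stellate markers were called higher in withdrawal than treated islets, beside 8.46% of all genes. After quantile normalization 3 and 7 were, beside 13.3%. The mean of 7 lymphocyte markers was lower on the treated arrays, at 5.63 to 5.84, than on the untreated, at 6.08 to 6.13, and withdrawal arrays, at 6.21 to 6.38. The signal was low, since the treated arrays' medians over all probe sets were 5.736 to 5.777. Between treated and untreated arrays 3 of the 7, Cd3e, Cd3g and Il7r, were called lower on both scales. The other 4 were not called, and Lck stood at 0.08 as deposited. The part of any of these cells in the heat shock results was not tested.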

How the data were processed

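Total RNA from isolated islets was hybridised to 9 Affymetrix rat arrays, 3 in each of 3 groups. The deposited values carry no stated unit and were read as log2, since none was 0 or negative and their range was that of log2 summaries. RMA and MAS5 are named in the submitters' processing notes, and their roles and versions are not given in the sources used here. Of 31099 probe sets, 57 controls and the lowest 33.3% by mean were left out. Gene symbols came from the platform annotation, updated through the RefSeq gene table of GRCr8, which gave 20826 probe sets with 1 symbol, 436 with several and 9780 with none. A gene was represented by its brightest probe set. Differences came from 1 fit of all 9 arrays with a term per group (lmFit, then eBayes, of limma 3.58.1; R 4.3.3), with Benjamini-Hochberg adjustment over 20695 probe sets and a threshold of 0.05, and the procedure was tested on simulated data. Members and gene lists were chosen with earlier results of these data known. The text names all members, up to 3 genes of each related list with the smallest F test p, and the 6 other genes most like Hspa1a; not all of these are printed. Alternatives were quantile normalization, median centring, other filters (none, or the lowest 50% left out), trended and robust eBayes, array weights, only the 6 arrays compared, a replicate block, the mean over probe sets and each array left out. Array number and brightness limit the precision; there is no read depth. Figures were drawn with matplotlib 3.10.9 in Python 3.11.15.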

Additional observations from a re-analysis of the deposited data

How the results depend on the processing

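The scaling between arrays changed the heat shock results most. After quantile normalization the genes called higher in treated than untreated islets went from 6 to 2, and those called lower after withdrawal than in treated islets from 6 to 0. With treated replicate 1 also left out, a setting chosen after seeing the data, they were 3 and 1. Leaving out 1 array at a time gave 4 to 7 and 5 to 7. Over all probe sets, the calls between treated and untreated arrays were 5817, and 3209 with only the 6 arrays compared, 3558 after quantile normalization and 2033 to 6319 with 1 array left out, the lowest without untreated replicate 2. Between withdrawal and treated arrays they were 9057, 6032 after quantile normalization (49.9% of them higher in withdrawal arrays, against 25.5%), and 5587 to 9511 with 1 array left out, the lowest without withdrawal replicate 2. Between withdrawal and untreated arrays they were 33, and 3275 with array weights, 494 with only the 6 arrays compared, 87 after quantile normalization, 409 with treated replicate 1 also left out, and 7 to 398 with 1 array left out, the highest without treated replicate 1. The F test called 7656, 5073 after quantile normalization and 4768 to 8609 with 1 array left out. With the replicate number as a block the withdrawal and untreated arrays gave 50 calls, and Hsp90ab1 passed between treated and untreated arrays (0.536, adjusted p = 0.0451), as it did with the mean over its probe sets (0.698, adjusted p = 0.0257). In their deviations from the group means, same-numbered arrays of different groups correlated at -0.283 to 0.504 and the others at -0.485 to 0.406. With means over 3 arrays, these values cannot show whether the numbers pair the samples. The differences that changed sign, none of them past the threshold, were Hspd1 between withdrawal and untreated arrays (0.087 and, without treated replicate 1, 0.089 after quantile normalization), Hspe1 (-0.002 with array weights, -0.023 to 0.175 with 1 array left out), Hsph1 (-0.096 with array weights, -0.132 to 0.255), Hspb1 (-0.099 to 0.536), and Hspb1 between withdrawal and treated arrays (0.041 after quantile normalization without treated replicate 1). The cause of these changes was not tested.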
